A study of Homo sapiens with 8 samples.

Results

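The zinc finger genes of chromosome 19 described here are its 249 protein-coding genes whose GENCODE symbol starts with ZNF, of 20163 protein-coding genes in the annotation. The family was taken up because the highest ranked of the regions with H3K23su peaks in the resistant line alone lay at ZNF470, ZNF253 and ZNF878. The contrast between the lines was therefore used in choosing the genes, and its values at them are given as a description, without a test. Chromosome 19 carries another 1231 protein-coding genes, and 267 protein-coding ZNF genes lie on other chromosomes. Both sets are used for comparison. Of the 249 symbols, 3 belong to readthrough genes that join neighbouring loci (ZNF559-ZNF177, ZNF625-ZNF20 and ZNF816-ZNF321P).

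The data are 8 lists of CUT&Tag peaks from the established human colorectal cancer cell line HCT15, with 4 lists for succinylation of lysine 23 of histone H3 (H3K23su) and 4 for acetylation of lysine 27 (H3K27ac). CUT&Tag tethers a transposase to chromatin through an antibody, so that sequenced fragments mark where the modification lies. Each mark was profiled in 2 libraries of parental cells (HCT15-Pa), labelled as treated with DMSO, and in 2 libraries of cells resistant to 5-fluorouracil (HCT15-FR), a pyrimidine analog that blocks thymidylate synthesis, labelled with 20 μg/ml of the drug. The study's methods state that HCT15-FR cells were held in drug-free medium before experiments, which the labels do not mention. HCT15-FR is a single derived line, so that any property of that line cannot be told apart from drug resistance. The sources used here do not say whether the 2 libraries of a group came from separate cultures, and p values then measure only the spread between these libraries, which may be technical.

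C2H2 zinc finger proteins read DNA through tandem fingers, each of which contacts a few bases. Most of those encoded on chromosome 19 also carry a KRAB domain, through which they recruit the corepressor TRIM28 and with it histone methylation and heterochromatin protein 1. Many silence transposable elements. The genes lie in tandem clusters that arose by duplication. In many cell types the bodies and 3′ exons of these genes are packaged in heterochromatin, while the promoters remain active, and the fingers are usually encoded by a single large last exon. Translation of the annotated coding sequences gave 3098 C2H2 patterns in 248 of the genes, with a median of 12 and at most 36 per protein (ZNF208), and 98.0% of the patterns started in the last exon. ZNF625-ZNF20, ZNF714 and ZNF816-ZNF321P held no pattern in the transcript used, and ZNF274 was left out of this count because its translation held stops.

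A promoter peak was counted for a gene wherever 1 bp or more of a peak fell within 1 kb of its transcription start site (TSS). The 3′ exon was the last exon outside this window, and the gene body ran from 1 kb downstream of the TSS to the 3′ exon. For each mark, genes with a peak in both libraries of HCT15-FR cells and in none of HCT15-Pa cells were called FR-only, and the reverse Pa-only. The score of a peak is the −log10 P that MACS2 gave in the authors' lists, and its percentile is its rank in its own list, with 100 the strongest. The lists held 65364 to 76676 peaks, of which 2492 to 3317 lay on chromosome 19, and the lowest scores were between 2.90 and 3.07. The lists of HCT15-FR cells were longer and covered more sequence in both marks, 39.4 to 46.6 Mb against 33.0 to 39.5 Mb for those of HCT15-Pa cells. Read depth is not in the lists, and a missing peak says only that the signal in this bulk sample did not pass the threshold. The promoter windows of 38 ZNF genes overlapped that of another protein-coding gene, 16 of them that of another gene of the family, and peaks there cannot be assigned to either gene.

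The promoters of 6 genes are shown because their peaks were restricted to the same line in both marks. The first 3 are ZNF470, ZNF253 and ZNF878, the FR-only promoters with the strongest H3K23su peaks, and the others are ZNF780B, ZNF83 and ZNF419, all the promoters that were Pa-only in both marks. Each sequence runs in the direction of transcription from 250 bases before the TSS to 50 bases from the TSS on, in GRCh37, with CpG dinucleotides in capitals.
ZNF470: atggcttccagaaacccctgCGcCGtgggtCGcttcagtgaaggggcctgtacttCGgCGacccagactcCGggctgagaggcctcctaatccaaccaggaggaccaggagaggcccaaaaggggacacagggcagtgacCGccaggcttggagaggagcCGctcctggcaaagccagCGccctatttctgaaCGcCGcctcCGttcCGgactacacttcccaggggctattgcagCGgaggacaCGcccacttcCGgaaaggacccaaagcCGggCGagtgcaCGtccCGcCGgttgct
ZNF253: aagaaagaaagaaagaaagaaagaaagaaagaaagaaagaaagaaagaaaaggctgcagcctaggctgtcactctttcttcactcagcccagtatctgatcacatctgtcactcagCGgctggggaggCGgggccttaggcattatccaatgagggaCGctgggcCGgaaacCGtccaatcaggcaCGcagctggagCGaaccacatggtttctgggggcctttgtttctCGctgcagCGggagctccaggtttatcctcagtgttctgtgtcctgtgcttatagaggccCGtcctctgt
ZNF878: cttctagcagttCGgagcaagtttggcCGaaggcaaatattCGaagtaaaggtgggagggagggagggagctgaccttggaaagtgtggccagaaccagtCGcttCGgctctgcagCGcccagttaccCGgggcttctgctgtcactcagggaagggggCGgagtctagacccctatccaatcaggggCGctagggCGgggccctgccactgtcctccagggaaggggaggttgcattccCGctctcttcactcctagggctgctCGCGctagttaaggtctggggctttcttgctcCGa
ZNF780B: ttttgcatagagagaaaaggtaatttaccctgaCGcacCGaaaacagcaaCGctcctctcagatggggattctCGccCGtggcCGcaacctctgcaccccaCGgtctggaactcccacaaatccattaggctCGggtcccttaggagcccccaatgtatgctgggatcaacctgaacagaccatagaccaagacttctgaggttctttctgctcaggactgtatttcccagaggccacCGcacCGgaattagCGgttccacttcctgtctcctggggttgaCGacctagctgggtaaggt
ZNF83: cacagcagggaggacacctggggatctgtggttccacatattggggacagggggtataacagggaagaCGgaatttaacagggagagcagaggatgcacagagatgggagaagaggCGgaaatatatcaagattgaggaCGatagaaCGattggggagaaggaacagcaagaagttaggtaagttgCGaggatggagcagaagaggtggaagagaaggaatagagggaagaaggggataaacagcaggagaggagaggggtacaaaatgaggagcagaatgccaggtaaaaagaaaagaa
ZNF419: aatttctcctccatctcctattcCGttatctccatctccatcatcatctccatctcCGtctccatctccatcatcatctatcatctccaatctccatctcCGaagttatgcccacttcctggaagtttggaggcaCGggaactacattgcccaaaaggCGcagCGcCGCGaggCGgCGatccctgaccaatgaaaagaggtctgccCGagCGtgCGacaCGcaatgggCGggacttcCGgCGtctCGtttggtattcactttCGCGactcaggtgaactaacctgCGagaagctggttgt

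ZNF470 (ENSG00000197016), on the plus strand of 19q at chr19:57078587-57078886 in the stretch shown, encodes a protein with 17 C2H2 patterns, and its promoter held 21 CpG dinucleotides. ZNF253 (ENSG00000256771, plus strand, chr19:19976441-19976740) encodes 11 patterns, held 10 CpG dinucleotides, and began with a run of AAAG repeats. ZNF878 (ENSG00000257446, minus strand, chr19:12163727-12164026) encodes 14 patterns and held 14. Of the Pa-only promoters, ZNF780B (minus strand, chr19:40562089-40562388) held 12, ZNF83 (minus strand, chr19:53140290-53140589) held 5 and ZNF419 (plus strand, chr19:57998868-57999167) held 21. CpG content therefore overlapped between these FR-only and Pa-only promoters.

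H3K23su peaks lay at 56.6% of the ZNF promoters in both HCT15-Pa libraries and at 61.0% in both HCT15-FR libraries. For H3K27ac the HCT15-Pa libraries had 61.4% and 60.6%, and the HCT15-FR libraries 63.1% and 63.5%. The HCT15-FR libraries were thus higher in each mark, by 4.42 percentage points for H3K23su and by 2.21 for H3K27ac, and the values of the lines did not overlap. Over all protein-coding genes the difference was 1.18 percentage points for H3K23su, and for H3K27ac it had the other sign, -1.38. For other genes of chromosome 19 it was 2.88 and 0.325, and for ZNF genes elsewhere 3.37 and 0.936. ZNF genes of other chromosomes had promoter peaks more often, with 76.4% ± 0.530 for H3K23su in HCT15-Pa cells and 79.8% ± 0.530 in HCT15-FR cells (SD, n = 2 libraries each).

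**Figure D1:**
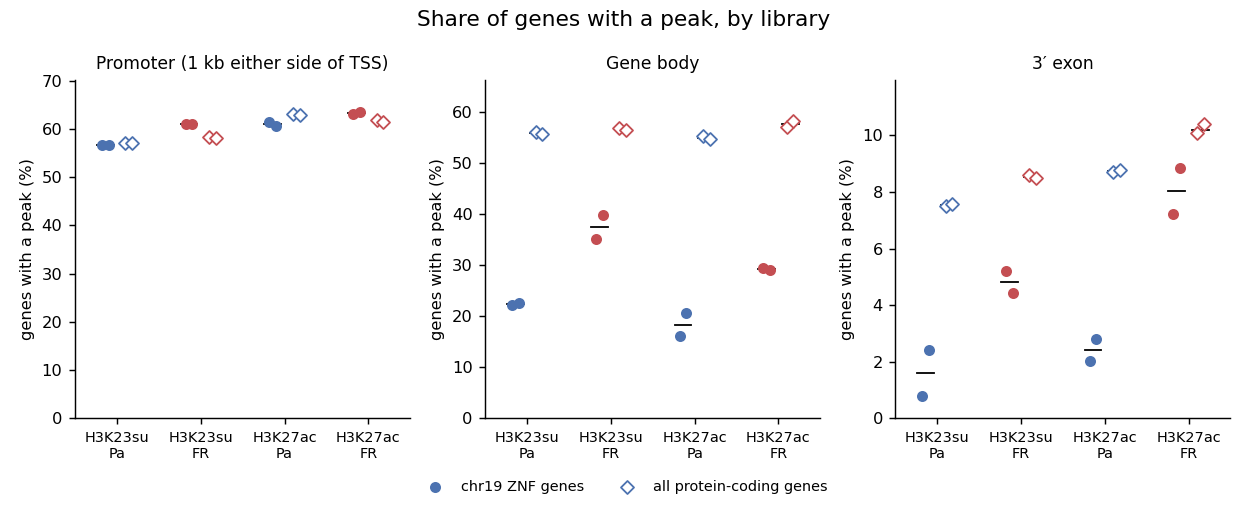
Percentage of genes with a peak in each library (vertical axes, separate scales starting at 0), by mark and line, for promoters, gene bodies and 3′ exons. Filled circles are the ZNF genes of chromosome 19, open diamonds all protein-coding genes, and bars the mean of 2 libraries. For each mark the HCT15-FR circles lie above the HCT15-Pa circles in every panel, and in gene bodies and 3′ exons the circles lie below the diamonds.

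The peaks were centred on the TSS or just downstream. In the HCT15-Pa libraries, H3K23su coverage of the ZNF genes reached 51.8% and 49.8% of the genes at its highest point, and in the HCT15-FR libraries 58.2% and 58.6%. At 500 bp upstream it was 8.03% and 9.24% against 13.7% and 12.4%, and at 500 bp downstream 36.5% and 34.5% against 46.6% and 47.0%. Coverage of the family was thus lopsided toward the gene. Over all protein-coding genes H3K23su covered 15.3% to 19.4% at 500 bp upstream and 33.9% to 40.5% at 500 bp downstream, so that ZNF genes had less coverage upstream of the TSS than the average gene. H3K27ac had the same shape, with 11.2% to 18.1% of the ZNF genes at 500 bp upstream against 24.9% to 27.2% of all genes.

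**Figure D2:**
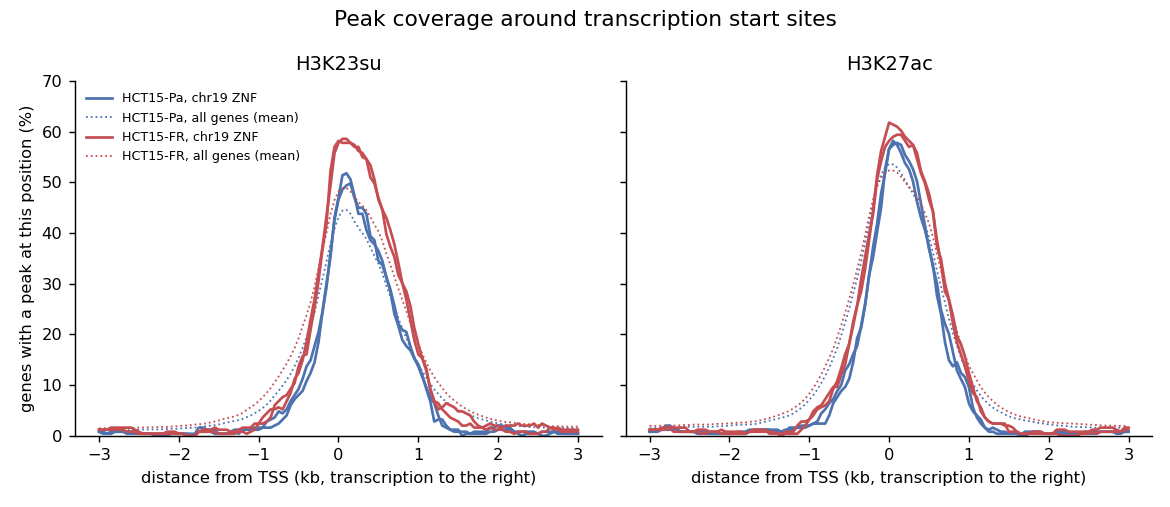
Percentage of genes with a peak at each position (vertical axis) against the distance from the TSS in kb, with transcription to the right. Solid lines are single libraries of the ZNF genes of chromosome 19 and dotted lines the mean of 2 libraries over all protein-coding genes. For the ZNF genes the HCT15-FR lines lie above the HCT15-Pa lines at the TSS, with the wider gap for H3K23su, while for all genes the H3K27ac lines are close, and ZNF genes show less coverage upstream than all genes.

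H3K23su peaks were present at 132 of the 249 promoters in all 4 libraries (53.0%, against 52.2% of all protein-coding genes). They were present in none at 86 promoters (34.5%, against 36.8%). FR-only promoters numbered 12, or 4.82% of the family, beside 1.83% of all protein-coding genes, 2.60% of other genes of chromosome 19 and 3.75% of ZNF genes elsewhere. Pa-only promoters numbered 3, or 1.20%, beside 1.48% of all genes. The remaining 16 had peaks in other combinations of libraries. Replicates of a line differed at 12 promoters in HCT15-Pa cells and at 4 in HCT15-FR cells, and libraries of different lines at 21 to 25.

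At ZNF470 the H3K23su peaks of the HCT15-FR libraries had scores of 11.9 and 11.1, at percentiles 98.8 and 98.2, and spanned 57078462 to 57079713 and 57078452 to 57079653 on chromosome 19. The nearest peaks in the HCT15-Pa libraries lay 27774 and 27859 bp from its TSS. At ZNF253 the scores were 12.3 and 10.9 in HCT15-FR cells, with the nearest HCT15-Pa peaks 89022 and 88813 bp away. ZNF878 had scores of 10.8 and 10.6, and the nearest HCT15-Pa peaks were at 63914 and 63911 bp. These promoters were chosen by these peaks. All lay over the TSS and reached further into the gene than upstream, and the HCT15-Pa lists held nothing near them.

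The other FR-only H3K23su promoters had weaker peaks. ZNF345, which also encodes a C2H2 protein and lies on 19q, had scores of 7.86 and 8.22 in HCT15-FR cells. ZNF836 had 7.25 and 7.47, ZNF491 9.35 and 6.63, ZNF284 6.71 and 6.51, and ZNF100 5.95 and 6.12. Of these, ZNF836, ZNF491, ZNF284 and ZNF100 also had an H3K27ac peak in 1 of the HCT15-Pa libraries, with scores between 3.34 and 5.82. At ZNF432, ZNF585B and ZNF628, H3K27ac peaks were present in all 4 libraries, so that only H3K23su was restricted to HCT15-FR cells. ZNF432, with H3K23su scores of 6.40 and 5.53, showed H3K27ac scores of 6.39 and 5.94 in HCT15-Pa cells and of 16.8 and 18.0 in HCT15-FR cells. ZNF585A and ZNF585B had H3K23su scores from 5.27 to 5.43. The weakest inside the class was ZNF628, with H3K23su scores of 4.06 and 4.70. Just outside it was ZNF254, which missed the class through a single HCT15-Pa peak with a score of 4.48.

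H3K27ac peaks were present at 139 promoters in all 4 libraries (55.8%, against 56.6% of all genes) and in none at 79 (31.7%, against 30.6%). FR-only promoters numbered 8, or 3.21%, beside 1.22% of all genes, and Pa-only promoters 6, or 2.41%, beside 2.08%. ZNF253 had the strongest FR-only peaks, with scores of 15.5 and 20.0, and ZNF254 followed with 14.1 and 13.0. ZNF878 had 11.9 and 10.2, ZNF470 9.28 and 11.4, ZNF345 9.26 and 10.1, and ZNF585A 5.18 and 5.98. ZNF790 and ZNF875 sat at the edge of the lists, with scores from 3.12 to 3.88. Without HCT15-Pa replicate 1 of this mark the FR-only count was 13, beside 2.01% of all genes.

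The promoters of ZNF470, ZNF253, ZNF878, ZNF345 and ZNF585A were FR-only in both marks, which is 5 of 249 (2.01%) beside 0.387% of all genes. With the stronger 50% of each list the number was 8, beside 0.303%. No promoter was FR-only in 1 mark and Pa-only in the other. Most of the family was alike in the marks, with 130 promoters that had both marks in all libraries and 77 that had neither in any. ZNF585A and ZNF585B are neighbouring paralogs, and the authors kept only uniquely mapped reads, which can thin the signal in near-identical copies.

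**Figure D3:**
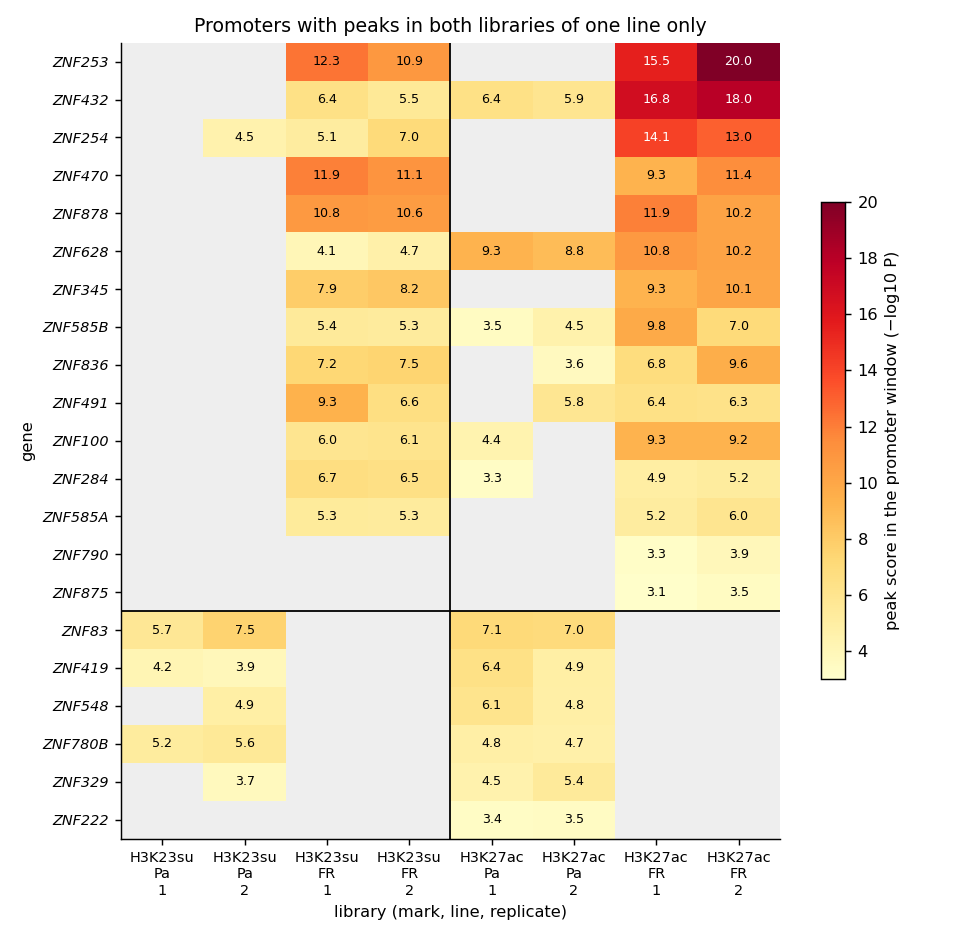
Score of the strongest peak in the promoter window (−log10 P, colour and printed value) for every ZNF gene of chromosome 19 with an FR-only (above the horizontal line) or Pa-only (below it) promoter in either mark, in the 8 libraries. Grey cells have no peak. The marks share a single colour scale, but their scores are comparable only within a mark. The 15 genes above the line are filled on the HCT15-FR side in at least 1 mark, and the 6 below it on the HCT15-Pa side, with scores of at most 7.55.

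No Pa-only promoter had a score above 7.55 for H3K23su or above 7.10 for H3K27ac. ZNF83 had H3K23su scores of 5.67 and 7.55 and H3K27ac scores of 7.10 and 6.97 in the HCT15-Pa libraries, from peaks that lay upstream of its TSS and reached only into the edge of the window. ZNF780B had 5.25 and 5.58 for H3K23su and 4.84 and 4.67 for H3K27ac, and ZNF419 had 4.19 and 3.92 and then 6.39 and 4.89. These 3 were Pa-only in both marks (1.20%, beside 0.774% of all genes). ZNF548, ZNF329 and ZNF222 were Pa-only for H3K27ac alone, with scores from 3.38 to 6.10. At ZNF222 a peak of an HCT15-FR library lay 1293 bp from the TSS, just outside the window. The Pa-only H3K23su count was 7 without HCT15-Pa replicate 1 of that mark (2.81%, beside 2.40% of all genes) and 5 without HCT15-Pa replicate 2 (2.01%, beside 2.51%).

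The promoters on the arms were alike. H3K23su peaks were present in all 4 libraries at 55.3% of the 85 promoters of 19p and at 51.8% of the 164 of 19q, and FR-only promoters were 4.71% and 4.88%. For H3K27ac the shares in all libraries were 55.3% and 56.1%, and FR-only promoters 3.53% and 3.05%. All Pa-only promoters, 3 for H3K23su and 6 for H3K27ac, were on 19q.

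The gene clusters, defined as runs of at least 5 ZNF genes with start sites at most 500 kb apart, differed more than the arms. There were 10 clusters with 235 of the genes. In the pericentromeric cluster from ZNF101 to ZNF254 on 19p, H3K23su peaks were present in all libraries at 12 of 37 promoters (32.4%) and absent from every library at 22 (59.5%), and the H3K27ac counts were identical. In the cluster from ZNF653 to ZNF791, 18 of 26 promoters (69.2%) had H3K23su in every library. FR-only H3K23su promoters were spread over 6 clusters, with 3 of 26 in the cluster from ZNF565 to ZNF573 on 19q, which also held 4 of the 8 FR-only H3K27ac promoters (ZNF345, ZNF585A, ZNF790 and ZNF875). The most telomeric cluster, from ZNF264 to ZNF446, had none of either mark among 43 genes and held 3 of the 6 Pa-only H3K27ac promoters. The 23 genes from ZNF575 to ZNF180 held 7 promoters whose H3K23su peaks differed between replicates or lines without a clean split. With 5 to 43 genes per cluster these shares rest on few promoters.

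**Figure D4:**
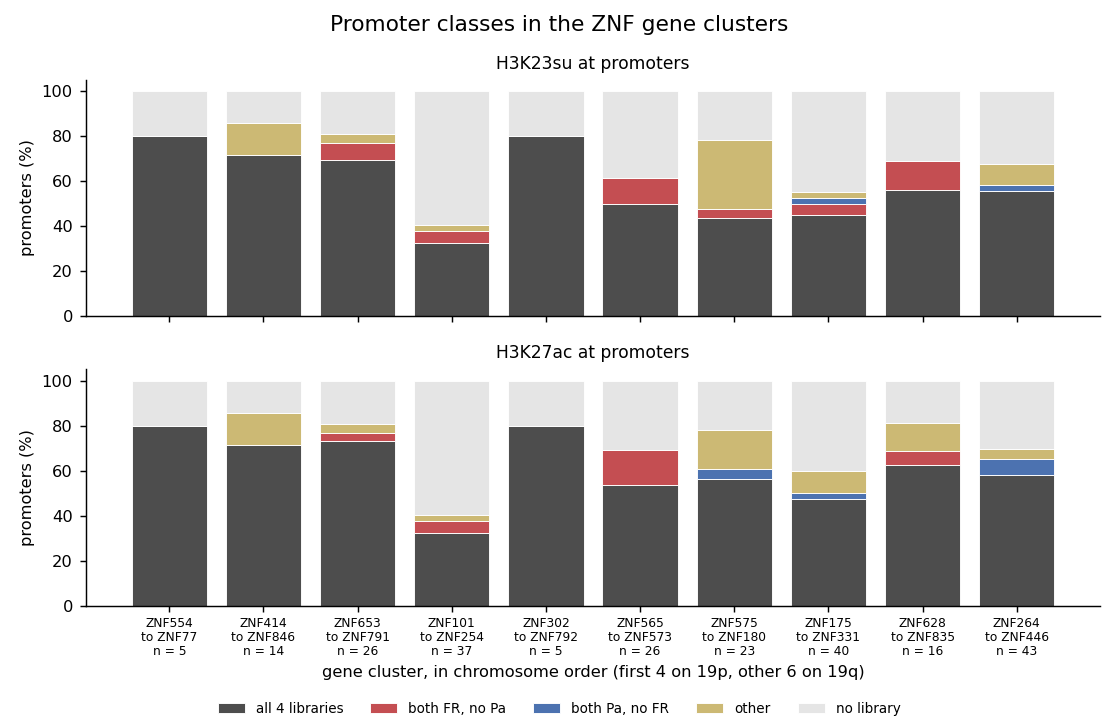
Percentage of promoters (vertical axes) in each peak class for the 10 clusters in chromosome order, H3K23su above and H3K27ac below. Colours separate promoters with peaks in all 4 libraries, in both HCT15-FR libraries alone, in both HCT15-Pa libraries alone, in other combinations and in none. The cluster from ZNF101 to ZNF254 has the largest share without a peak, 59.5% in both marks.

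Where a promoter had H3K23su peaks in all 4 libraries, the peaks covered more of the window in HCT15-FR cells. The median covered length over the 132 ZNF promoters was 858.5 and 854 bp in the HCT15-Pa libraries and 1100 and 1062 bp in the HCT15-FR libraries. For H3K27ac, over 139 promoters, it was 932 and 972 bp against 1098 and 1091 bp. Coverage was wider in both HCT15-FR libraries than in both HCT15-Pa libraries at 68 promoters for H3K23su (51.5%, beside 44.5% of all genes) and at 71 for H3K27ac (51.1%, beside 32.7%). It was wider in both HCT15-Pa libraries at 8 (6.06%, beside 6.13%) and 6 (4.32%, beside 11.0%). The median peak percentile at these promoters for H3K23su was 87.4 and 85.5 in HCT15-Pa cells, against 92.4 and 92.2 in HCT15-FR cells. Peaks were wider over the whole HCT15-FR lists too, with median widths of 447 to 483 bp against 386 to 403 bp.

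Gene bodies of the family carried few peaks, and more of them did in HCT15-FR cells. H3K23su peaks lay in 22.2% and 22.6% of the 248 gene bodies in the HCT15-Pa libraries and in 35.1% and 39.9% in the HCT15-FR libraries, so that the mean went from 22.4% ± 0.285 to 37.5% ± 3.42 (SD, n = 2 each). H3K27ac peaks lay in 16.1% and 20.6% against 29.4% and 29.0%, with means of 18.3% ± 3.14 and 29.2% ± 0.285. The libraries of the lines did not overlap in either mark. Over all protein-coding genes the means were 55.9% and 56.7% for H3K23su and 55.0% and 57.6% for H3K27ac. Gene bodies of the family had a median length of 15720 bp, and those of all genes 23110 bp. The part of length in these shares was not tested. Per base, peaks covered 0.510% of the ZNF gene bodies in HCT15-Pa cells and 1.12% in HCT15-FR cells for H3K23su, and 0.467% and 0.861% for H3K27ac. Over all protein-coding genes coverage was 1.33% and 1.62% for H3K23su, and 1.27% and 1.68% for H3K27ac.

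FR-only gene bodies numbered 25 for H3K23su (10.1%, beside 2.66% of all genes) and 20 for H3K27ac (8.06%, beside 3.54%), and 7 were FR-only in both marks (2.82%, beside 0.629%). Pa-only gene bodies numbered 3 (1.21%, beside 2.39%) and 4 (1.61%, beside 2.18%). Among ZNF genes elsewhere, FR-only gene bodies were 6.11% for H3K23su and 5.34% for H3K27ac, between the family and all genes. Of the 25 FR-only H3K23su gene bodies of the family, 14 had promoter peaks in all 4 libraries, 8 in none, and 2 had FR-only promoters. Over all promoters of the family these classes held 53.0%, 34.5% and 4.82%. FR-only promoters are rare in the family, so their small number here does not set gene bodies apart from promoters. By cluster, 23 of the 25 lay in the clusters from ZNF653 to ZNF791 (5), ZNF101 to ZNF254 (6), ZNF565 to ZNF573 (6) and ZNF175 to ZNF331 (6). The median score of these peaks was 5.08 and 4.65 in the HCT15-FR libraries, near the medians of the whole lists, 4.56 and 4.58. Examples chosen after their values were seen are ZNF808, with H3K23su scores of 8.98 and 9.03, and ZNF793, with 5.39 and 5.96 for H3K23su and 8.10 and 11.7 for H3K27ac, all in HCT15-FR cells.

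Many gene body peaks lay at other annotated start sites of the same gene, which is the case in 35 of the 55 genes with an H3K23su peak in HCT15-Pa replicate 1. With all peaks within 1 kb of any start site left out, 10.9% and 10.1% of the gene bodies had an H3K23su peak in HCT15-Pa cells, against 21.4% and 25% in HCT15-FR cells, and 23 were FR-only (9.27%, beside 2.37% of all genes). Restricted to the stronger 50% of each list, FR-only gene bodies numbered 18 for H3K23su (7.26%, beside 3.18%), of which 11 were FR-only with the whole lists. For H3K27ac they numbered 10 under this setting (4.03%, beside 3.74%), so that the excess over all genes was not seen among stronger H3K27ac peaks. Without HCT15-FR replicate 1 or 2 of H3K27ac the count was 33 (beside 6.10%) or 36 (beside 5.50%).

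The 3′ exons, which encode nearly all the fingers, were almost free of both marks. No library had an H3K23su peak there in 233 of the 249 genes (93.6%, beside 84.8% of all protein-coding genes). None had an H3K27ac peak in 219 (88.0%, beside 82.5%). Most genes of any kind thus lacked a 3′ exon peak. H3K23su peaks lay in 0.803% and 2.41% of the 3′ exons in the HCT15-Pa libraries and in 5.22% and 4.42% in the HCT15-FR libraries, and H3K27ac peaks in 2.01% and 2.81% against 7.23% and 8.84%. These are far lower than the promoter shares of the same libraries, all of which were at least 56.6%. Over all protein-coding genes the means were 7.54% and 8.54% for H3K23su and 8.73% and 10.2% for H3K27ac. The median length of the 3′ exons was 3293 bp in the family and 1384 bp over all genes, and its part in these shares was not tested.

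FR-only 3′ exons numbered 5 for H3K23su (2.01%, beside 1.30% of all genes), at ZNF101, ZNF404, ZNF490, ZNF211 and ZNF577. For H3K27ac they numbered 9 (3.61%, beside 1.65%), and 4 were FR-only in both marks (1.61%, beside 0.337%). None was Pa-only in either mark, beside 0.643% and 0.607% of all genes. At ZNF404, whose promoter had no peak in any library, the 3′ exon had H3K23su scores of 5.08 and 4.05 and H3K27ac scores of 7.44 and 7.68 in HCT15-FR cells. ZNF101 had 6.03 and 4.28, and 7.19 and 6.86. The FR-only H3K27ac peaks at ZNF571, ZNF227, ZNF615, ZNF180, ZNF345, ZNF211 and ZNF490 had scores from 3.23 to 5.97. The median scores of the FR-only 3′ exon peaks were 4.62 and 4.01 in the HCT15-FR libraries for H3K23su, at percentiles 51.8 and 30.7, and 4.96 and 5.31 for H3K27ac, at percentiles 53.8 and 59. With the stronger 50% of each list the counts were 0 (beside 0.673% of all genes) and 4 (1.61%, beside 0.719%). Without HCT15-FR replicate 2 of H3K23su the first count was 8 (3.21%, beside 3.0% of all genes), and without HCT15-FR replicate 1 of H3K27ac the second was 16 (6.43%, beside 3.62%). The H3K23su share was then near that of all genes.

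Peaks in the 3′ exon in all 4 libraries of a mark were found at ZNF565 and ZNF580 for H3K23su (0.803%, beside 3.09% of all genes) and at ZNF565 for H3K27ac (0.402%, beside 3.83%). With peaks within 1 kb of any start site left out, 1 gene remained for H3K23su (0.402%, beside 2.32%) and 1 for H3K27ac (0.402%, beside 2.83%). At ZNF565, on 19q, the H3K23su scores were 4.0 and 4.49 in HCT15-Pa cells, against 7.56 and 8.69 in HCT15-FR cells, and the H3K27ac scores 7.49 and 9.12 against 20.7 and 23.1. At ZNF580, a short gene with 3 C2H2 patterns, the H3K23su scores were 6.40, 5.30, 4.38 and 6.54. ZNF565 was thus higher in HCT15-FR cells in both marks, while the lines overlapped at ZNF580.

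H3K23su and H3K27ac were compared over the 4 libraries of each mark. The broad option of peak calling was used for H3K27ac alone. The mark, its antibody and the way of calling therefore cannot be told apart in these contrasts. The choice of the genes used H3K23su peaks at ZNF470, ZNF253 and ZNF878, which also enter the H3K23su shares. The share of ZNF promoters with a peak was 58.8% ± 2.55 for H3K23su and 62.1% ± 1.33 for H3K27ac (SD, n = 4 libraries each), a difference of -3.31 percentage points (two-sided exact permutation test, p = 0.114, adjusted p = 0.343 over 3 contrasts). In gene bodies the shares were 29.9% ± 8.95 and 23.8% ± 6.54, a difference of 6.15 (exact permutation test, p = 0.343, adjusted p = 0.371). In 3′ exons they were 3.21% ± 1.99 and 5.22% ± 3.33, a difference of -2.01 (exact permutation test, p = 0.371, adjusted p = 0.371). None passed the threshold of 0.05, although 4 libraries against 4 can reach 0.0286. The spread of each mark includes that between the lines. Within HCT15-Pa cells the promoter difference was -4.42 and within HCT15-FR cells -2.21, and within each line the libraries of the marks did not overlap. In gene bodies the differences within the lines were 4.03 and 8.27, again without overlap within a line. In 3′ exons they were -0.803, with overlap, and -3.21, without. Groups of 2 libraries cannot give a p below 0.333, so that these within-line differences were not tested. The gene body difference depended on the window, and was -0.803 with a window of 500 bp, 1.75 with one of 2 kb, 2.22 with peaks placed by their midpoints and 1.92 with peaks near any TSS left out. With lists of equal length it was 8.87, and with the stronger 50% of each list 6.05. The directions were not particular to the family. Over all protein-coding genes, promoter means in HCT15-Pa and HCT15-FR cells were 57.1% and 58.3% for H3K23su, against 63.1% and 61.7% for H3K27ac. In gene bodies of ZNF genes elsewhere they were 50.4% and 56.7% against 40.1% and 46.9%.

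The promoters of the family shared sequence features that the choice of genes did not use. The median GC content of the 300 bases was 59.3%, against 63.3% for all protein-coding genes, while the ratio of observed to expected CpG dinucleotides was close, 0.767 against 0.773. Promoters of the family without an H3K23su peak in any library still had a median ratio of 0.752, while promoters of all genes in that class had 0.390. The 12 FR-only H3K23su promoters had a median of 0.651, with a range from 0.365 to 1.05, which lies within the range of 0.199 to 1.08 of those with peaks in all 4 libraries. Median ratios by cluster ran from 0.457 in the cluster from ZNF101 to ZNF254 to 0.847 in that from ZNF175 to ZNF331.

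**Figure D5:**
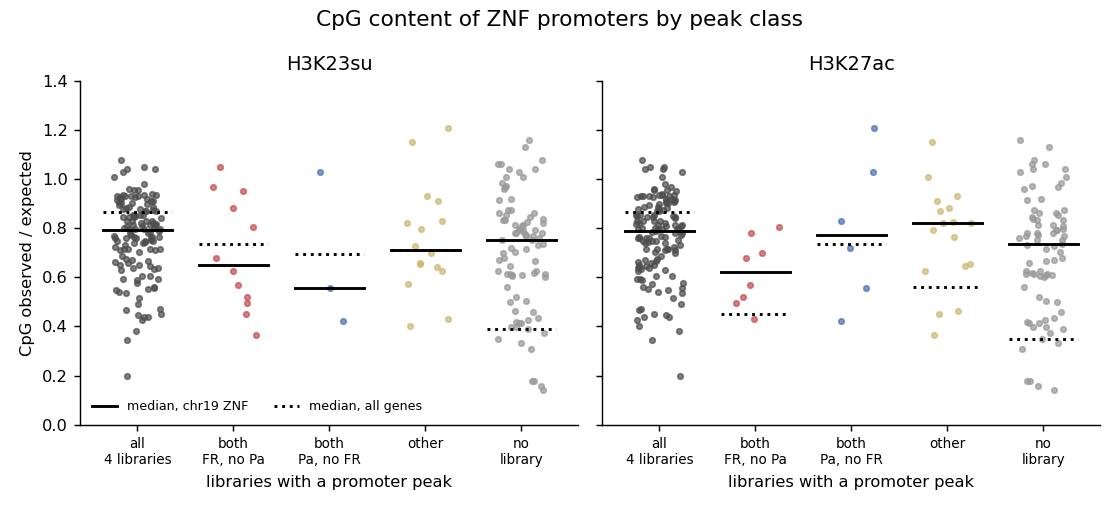
Ratio of observed to expected CpG dinucleotides (vertical axis) in the 300 bases around the TSS of each ZNF gene of chromosome 19, grouped by the libraries with a promoter peak. Solid bars are medians of these genes and dotted bars medians of all protein-coding genes in the class. Promoters without an H3K23su peak have a median of 0.752 in the family against 0.390 over all genes.

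Exact matches to 7 motifs were counted on both strands of the same 300 bases, and matches to different motifs may overlap. CCGGAAGT, a core of ETS family binding sites, was present in 48 of the 249 promoters (19.3%), in 6.09% of all promoters, in 6.26% of those of other chromosome 19 genes and in 13.5% of those of ZNF genes elsewhere. It was present in 22 of the 132 promoters with H3K23su in all libraries (16.7%) and in 17 of the 86 with none (19.8%), which are close shares. Among the FR-only H3K23su promoters 3 of 12 held it. The promoters of ZNF470 and ZNF419 shown above, 1 from each line's class, both held it.

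The other motifs occurred at rates near those of all promoters. GGGCGGGG, a site for SP and KLF factors, was in 35.3% against 33.7%. TGANTCA, the AP-1 core, was in 5.22% against 5.42%, with no match in the 12 FR-only H3K23su promoters. TGACGTCA (CREB and ATF factors) was in 3.61% against 2.68%, GCGCATGC (NRF1) in 4.82% against 4.26%, AAGATGGCG (YY1) in 4.02% against 2.81% and CTCGCGAG in 0.803% against 1.45%. A match describes letters in this window only.

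A list of 21 genes for the machinery that KRAB zinc finger proteins work with had H3K27ac promoter peaks in all 4 libraries at every gene. Over all protein-coding genes, promoter peaks in all 4 libraries were present at 56.6% for H3K27ac and 52.2% for H3K23su. H3K23su promoter peaks were also present in all 4 libraries at TRIM28, the corepressor, SETDB1, the H3K9 methyltransferase, and CBX1, CBX3 and CBX5, which encode the heterochromatin protein 1 family. At UHRF1, a reader of hemimethylated DNA, the H3K23su libraries differed without a clean split between the lines. Of 20 other zinc finger genes of chromosome 19 with names such as ZFP, ZSCAN or ZBTB, 13 had no promoter peak of H3K23su, beside 36.8% of all genes. ZFP14 and ZFP36 were FR-only for H3K23su, beside 1.83% of all genes, both with H3K27ac in all libraries. At ZFP36 the H3K23su scores were 3.53 and 3.38, at percentiles 10.9 and 5.8, near the lowest scores of the lists. The 7 epithelial and colon markers (EPCAM, KRT8, KRT18, KRT19, CDH1, CDX2 and VIL1) all had H3K27ac promoter peaks in every library. H3K23su promoter peaks were present in every library at only 6 of the 7. PTPRC and CD3E, markers of leukocytes, had no promoter peak of either mark. COL1A1, a fibroblast collagen, had H3K27ac in all 4 libraries and no H3K23su, and VIM, the mesenchymal intermediate filament, was FR-only for H3K23su with scores of 5.62 and 5.75. VIM was not FR-only for H3K27ac, with scores of 4.22 in HCT15-Pa replicate 2 and of 10.2 and 10.3 in the HCT15-FR libraries. Their part in the results for the zinc finger genes was not tested.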

How the data were processed

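CUT&Tag was performed in HCT15-Pa and HCT15-FR cells for H3K23su and H3K27ac, with 2 libraries per line and mark. According to the methods and the labels, the authors aligned reads to hg19 with Bowtie2, removed duplicates and multiply mapped reads with SAMtools and called peaks in each library with MACS2, with the broad option for H3K27ac. The control and the threshold of the peak calling are not given in the sources used here. The deposited lists hold, for each peak, the authors' −log10 of the P value, and no counts. Scores of broad and narrow calls are not on a common scale, so that scores were compared only within a mark.

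Groups were taken from the sample labels. Genes and start sites came from GENCODE release 44 mapped to GRCh37, with the transcript tagged as canonical, or the 5′ end of the gene for 3 of the ZNF genes that had no tag. Sequences were read from GRCh37, and not from the RefSeq promoter table, which is on another build. Peaks were placed in windows of 1 kb on either side of the TSS, gene bodies and 3′ exons, with presence defined by 1 bp of overlap. The 19p and 19q genes were divided at the largest assembly gap. The genes, lists and motifs were chosen with earlier results of these data known. Named are ZNF470, ZNF253 and ZNF878, the up to 8 FR-only and up to 8 Pa-only genes per mark at promoters and 3′ exons whose weaker peak had the highest percentile, all genes FR-only in both marks, and up to 5 with the highest lowest 3′ exon percentile over the 4 libraries of a mark, and other names were added after their values were seen. The H3K23su result of 1 other gene is not reported here.

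Marks were compared by two-sided exact permutation tests over libraries, with Benjamini-Hochberg adjustment. For HCT15-FR against HCT15-Pa cells no test was made, since the smallest p for groups of 2 libraries is 0.333. The assignment of classes was tested on simulated data with planted peaks. Alternatives kept the stronger 50% of each list or lists of equal length, placed peaks by their midpoints, and used windows of 500 bp and 2 kb, any TSS, each library left out and pairing by replicate number. Leaving out peaks near any TSS and the counts of gene bodies were added after the data were examined. The versions were scipy 1.17.1 and numpy 2.4.6 for the tests, pandas 2.3.3 for the tables and matplotlib 3.10.9 for the plots, under Python 3.11.15.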

Additional observations from a re-analysis of the deposited data

How the results depend on the processing

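Most alternatives left the counts within 1.5 times the value given and the contrasts of the marks on the same side of the threshold with the same direction. The exceptions follow, and their cause was not tested unless stated. With the stronger 50% of each list, FR-only 3′ exons numbered 0 for H3K23su and 4 for H3K27ac, FR-only H3K27ac gene bodies 10, and promoters FR-only in both marks 8. Similar counts did not always mean the same genes. With a window of 500 bp, 15 of 28 FR-only H3K23su gene bodies and 9 of 22 H3K27ac ones were among those given above. With the stronger 50%, 11 of 18 FR-only H3K23su gene bodies and 6 of 12 H3K27ac promoters were. The 12 FR-only H3K23su promoters were the same with the 500 bp window. The gene body contrast between the marks became -0.803 percentage points with a window of 500 bp (exact permutation test, p = 0.686), where gene bodies begin closer to the promoter, and 1.75 with 2 kb, 2.22 by midpoints and 1.92 without peaks near any TSS, from 6.15. With equal list lengths the gene body contrast was 8.87, and with the stronger 50% it was 6.05. The contrast of 3′ exons became -0.201 with the stronger 50% and -1.31 with equal list lengths, from -2.01. Leaving out 1 library at a time by construction relaxes presence to the library that is left. It gave FR-only promoters of 14 to 16 for H3K23su, 8 to 13 for H3K27ac and 5 to 7 for both marks. Over all genes these shares were 2.60% to 3.27%, 1.89% to 2.32% and 0.427% to 0.506%. Pa-only promoters numbered 3 to 7 and 6 to 8, beside 1.77% to 2.51% and 2.66% to 3.69% of all genes. For H3K27ac the Pa-only share of the family, 2.41% to 3.21%, was below that of all genes each time. FR-only 3′ exons numbered 5 to 8 and 10 to 16, and FR-only gene bodies 35 to 37 and 24 to 36. The shares over all genes moved too, to between 1.98% and 3.0% and between 2.39% and 3.62% for 3′ exons and between 4.56% and 5.32% and between 5.50% and 6.59% for gene bodies, so that for H3K23su 3′ exons the family was near all genes. The contrasts of the marks ranged from -4.05 to -2.58 for promoters, 2.82 to 8.74 for gene bodies and -3.08 to -0.803 for 3′ exons, and none passed the threshold, which 3 libraries against 4 cannot reach. Replicate numbers were shared between groups, and whether they pair the libraries is not settled. The deviations of same-numbered libraries were correlated over promoters with peaks in all the libraries compared. The correlations were 0.0194 for H3K23su and -0.0222 for H3K27ac between the lines. Between the marks they were 0.246 in HCT15-Pa cells and -0.139 in HCT15-FR cells, of mixed sign. Counted within replicate numbers as a replicate block, which asks for 1 library per line, the mean over the pairs was 9 FR-only 3′ exons for H3K23su and 15.5 for H3K27ac, 48.5 and 42.5 FR-only gene bodies, 14 FR-only H3K27ac promoters and 6 Pa-only H3K23su promoters. Shares over all genes were not computed for the replicate block, so these counts are no result about the family. An exact sign flip permutation test within the 4 pairs gave p = 0.125 for each contrast of the marks, the smallest it can give, and crossing the numbers of the HCT15-FR libraries between the marks gave the same values. Read depth is not in the lists, so its effect on presence was not tested.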
